A study of Mus musculus with 16 samples.

Results

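The genes described are 27 genes of cholesterol synthesis, of its regulation through the transcription factor SREBP2, and of sterol transport and export, out of 54838 genes in the deposited count table of mouse liver. They were chosen by gene symbol for their known role. They comprise 19 synthesis enzymes (Acat2, Hmgcs1, Mvk, Pmvk, Mvd, Idi1, Fdps, Ggps1, Fdft1, Sqle, Lss, Cyp51, Tm7sf2, Msmo1, Nsdhl, Hsd17b7, Ebp, Sc5d and Dhcr7), 4 genes of the SREBP2 system (Srebf2, Scap, Insig1 and Insig2) and 4 genes of transport, uptake control and export (Stard4, Mylip, Abcg5 and Abcg8). All 27 passed the filter on low counts and were among the 14865 genes tested. RNA-seq was done on 16 libraries, 4 in each of 4 groups: tumors of mice given a traditional Chinese medicine decoction (TCM), peri-tumor liver of the same TCM mice, tumors of control mice, and peri-tumor liver of the same control mice. All 8 mice carried HrasG12V, an activated Ras oncogene, and all samples were labelled 3 months, which is not stated to be an age or a length of treatment. The protocol names Ras-transgenic and DEN-induced mice together, DEN being the liver carcinogen diethylnitrosamine, without saying which of these mice received DEN. What drives the transgene, the age and sex of the mice and what the decoction held, or at which dose, are not stated in the sources. The study asked whether the decoction limits liver tumors, and how RNA differs in tumor and peri-tumor tissue with and without it.

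Cells make cholesterol from acetyl-CoA through mevalonate, the isoprenoids, squalene and lanosterol, and the liver is a main site of this synthesis. When sterols in the endoplasmic reticulum are low, SCAP carries SREBP2 to the Golgi, where it is cut into an active factor that raises the genes of nearly every step. When sterols are high, the INSIG proteins hold SCAP and SREBP2 back, and oxysterols activate the LXR receptors, which raise the sterol exporters Abcg5 and Abcg8 and the uptake inhibitor Mylip.

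The start sites of Hmgcs1, Idi1, Cyp51 and Nsdhl are shown as examples from different steps of the pathway that all rose in control tumors. Hmgcs1 and Cyp51 also rose in TCM tumors, Hmgcs1 and Idi1 also in TCM relative to control peri-tumor liver, and Nsdhl in neither. Hmgcs1 makes HMG-CoA at the entry to the mevalonate pathway. Idi1 isomerises isopentenyl diphosphate, Cyp51 demethylates lanosterol, and Nsdhl removes carbon from a later sterol. The sequences are RefSeq promoter windows on GRCm38.p6, from 250 bases before to 50 bases after the start, 5′ to 3′ on the gene's strand. Capitals mark CCAAT boxes on either strand (CCAAT or ATTGG) and, in Hmgcs1, the sterol element TCACCCCAC.
Hmgcs1, chr13:119690101-119690400, plus strand: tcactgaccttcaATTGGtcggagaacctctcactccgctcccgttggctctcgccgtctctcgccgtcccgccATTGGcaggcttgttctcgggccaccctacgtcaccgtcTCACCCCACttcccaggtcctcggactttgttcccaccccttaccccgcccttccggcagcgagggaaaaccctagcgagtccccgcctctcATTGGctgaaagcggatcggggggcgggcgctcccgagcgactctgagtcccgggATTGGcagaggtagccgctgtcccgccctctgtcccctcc
Idi1, chr13:8885356-8885655, plus strand: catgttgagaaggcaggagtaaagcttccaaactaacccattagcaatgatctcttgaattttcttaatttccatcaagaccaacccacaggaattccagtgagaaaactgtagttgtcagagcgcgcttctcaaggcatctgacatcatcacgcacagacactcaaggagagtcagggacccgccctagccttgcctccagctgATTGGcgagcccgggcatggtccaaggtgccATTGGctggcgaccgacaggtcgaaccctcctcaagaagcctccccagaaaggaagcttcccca
Cyp51, chr5:4104648-4104947, minus strand: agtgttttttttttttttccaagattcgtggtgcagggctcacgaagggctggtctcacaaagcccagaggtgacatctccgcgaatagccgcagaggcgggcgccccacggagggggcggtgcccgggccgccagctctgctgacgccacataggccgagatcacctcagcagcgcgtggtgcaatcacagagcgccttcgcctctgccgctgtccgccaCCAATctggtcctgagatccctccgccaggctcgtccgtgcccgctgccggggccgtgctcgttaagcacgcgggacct
Nsdhl, chrX:72918271-72918570, plus strand: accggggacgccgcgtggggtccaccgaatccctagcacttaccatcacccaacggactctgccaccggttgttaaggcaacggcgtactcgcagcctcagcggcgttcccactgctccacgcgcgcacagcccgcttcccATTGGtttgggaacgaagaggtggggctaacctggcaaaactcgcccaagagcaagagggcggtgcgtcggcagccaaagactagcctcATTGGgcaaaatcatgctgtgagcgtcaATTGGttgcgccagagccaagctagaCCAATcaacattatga
Windows were found for 23 of the 27 genes, all but Fdps, Fdft1, Sqle and Stard4. The sterol element pattern TCACNCCAC, searched on both strands, stood in 1 of the 23 (Hmgcs1), against 1.44% of all 27025 genes with a window. CCAAT, bound by NF-Y, stood in 21 of 23 genes against 41.1% of all genes. The Sp1 box GGGCGG stood in 19 of 23 genes against 38.2%, and the E-box CACGTG in 5 of 23 against 8.09%. No match of one motif overlapped a match of another. The windows of these genes had a median GC content of 60.8%, against 52.7% over all windows. A match describes letters, not a bound site. For the sterol element only the exact pattern TCACNCCAC was searched, so elements with other letters would be missed and left unmarked.

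Libraries held 13947483 to 16194224 counts. Values below are CPM, counts scaled to the library total and edgeR's TMM factors, with mice 1 to 4 of a group in that order. A gene was called higher or lower when edgeR's quasi-likelihood test across all 14865 genes gave an adjusted p (Benjamini-Hochberg) under 0.05, log2 fold changes carry their standard error, and spreads are SD over 4 mice. Hras, the gene of the transgene, was called in none of the 5 comparisons. Both libraries of control mouse 4 stood apart from the other control mice. On the second principal component of all genes (13.8% of the variance) control tumor 4 lay at -2.00 and control peri-tumor 4 at 1.96, against -21.7 to -14.7 in the other control tumors, -45.4 to -30.7 in the other control peri-tumor libraries and 17.1 to 28.8 in the TCM libraries. Results that rest on this mouse are therefore given with and without it. All libraries are bulk tissue, in which fewer cells of a type and less RNA per cell cannot be told apart.

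The summed level of the 19 enzymes was highest in TCM tumors and lowest in control peri-tumor liver. It was 4538, 5006, 5368 and 5199 CPM in TCM tumors and 1949.9, 1788, 2316 and 2039.7 CPM in TCM peri-tumor liver. It was 2976, 2820.3, 2475 and 4326 CPM in control tumors and 771, 997, 906 and 1897 CPM in control peri-tumor liver. Every tumor lay above every peri-tumor library, and every TCM tumor above every control tumor. In peri-tumor liver the first 3 control mice lay at or below 997 CPM and below every TCM mouse, whereas control mouse 4 reached 1897 CPM, within the TCM range. The enzymes took 0.208% to 0.241% of summed FPKM (reads scaled by gene length and by library size) in TCM tumors and 0.0739% to 0.0839% in TCM peri-tumor liver. In control mice they took 0.119% to 0.208% in tumors and 0.0344% to 0.0786% in peri-tumor liver.

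**Figure D1:**
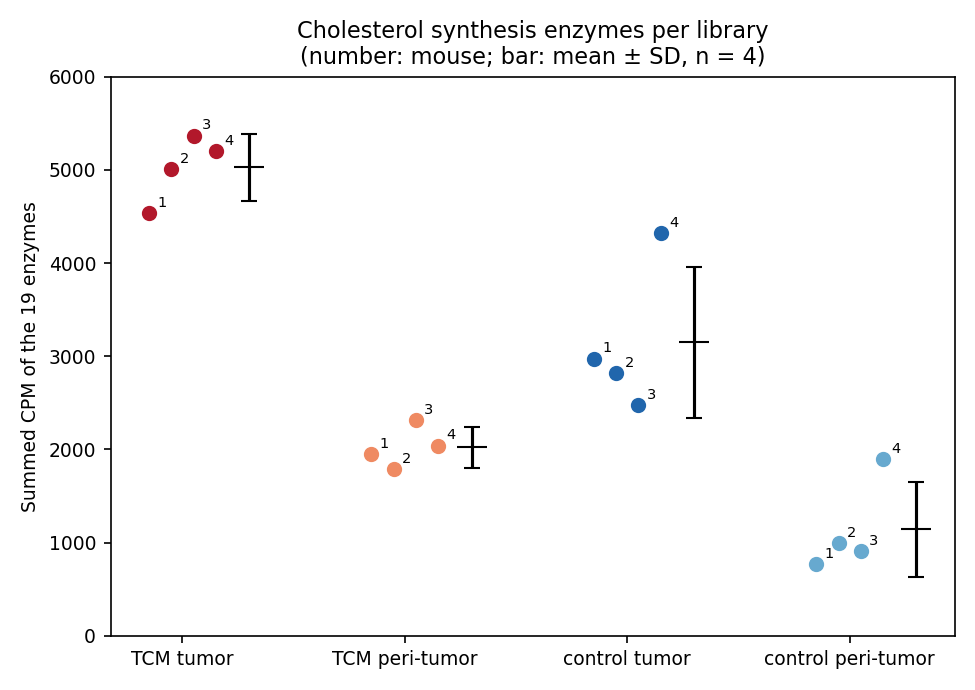
Summed CPM of the 19 cholesterol synthesis enzymes (vertical axis) in each of the 16 libraries, by group, with points for mice. The TCM tumors lie at 4538 to 5368 CPM and the control peri-tumor libraries at 771 to 1897 CPM, where mouse 4 is highest.

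In control mice, 18 of the 27 genes rose in tumors relative to peri-tumor liver, 4 fell and 5 did not pass the test. Over all genes 22% were called higher and 21.2% lower, 43.2% in either direction. The median log2 fold change of the 27 genes was 0.91, against 0.00 over all genes. In TCM mice, 14 of the 27 rose, none fell and 13 did not pass, where 17.3% of all genes were called higher and 15.6% lower (32.9% in either direction), and the median was 0.95 against 0.00. At an unadjusted p under 0.05 also 0 of the 27 were lower in TCM tumors, as with DESeq2, which gave an adjusted p for 25 of the 27 genes (not for Idi1 and Nsdhl). Of the 19 enzymes, 15 rose and 1 fell in control tumors, and 13 rose and none fell in TCM tumors. Without overlap between libraries, 18 genes were higher and none lower in TCM tumors (17.3% and 16.6% of all genes), and 14 higher and 2 lower in control tumors (20% and 18.8% of all genes). Within single mice, 18 of the 27 genes were higher in the tumor than in the peri-tumor tissue of the same mouse in 8 of 8 mice. This count was not made over all genes, so it has no share to stand beside.

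**Figure D2:**
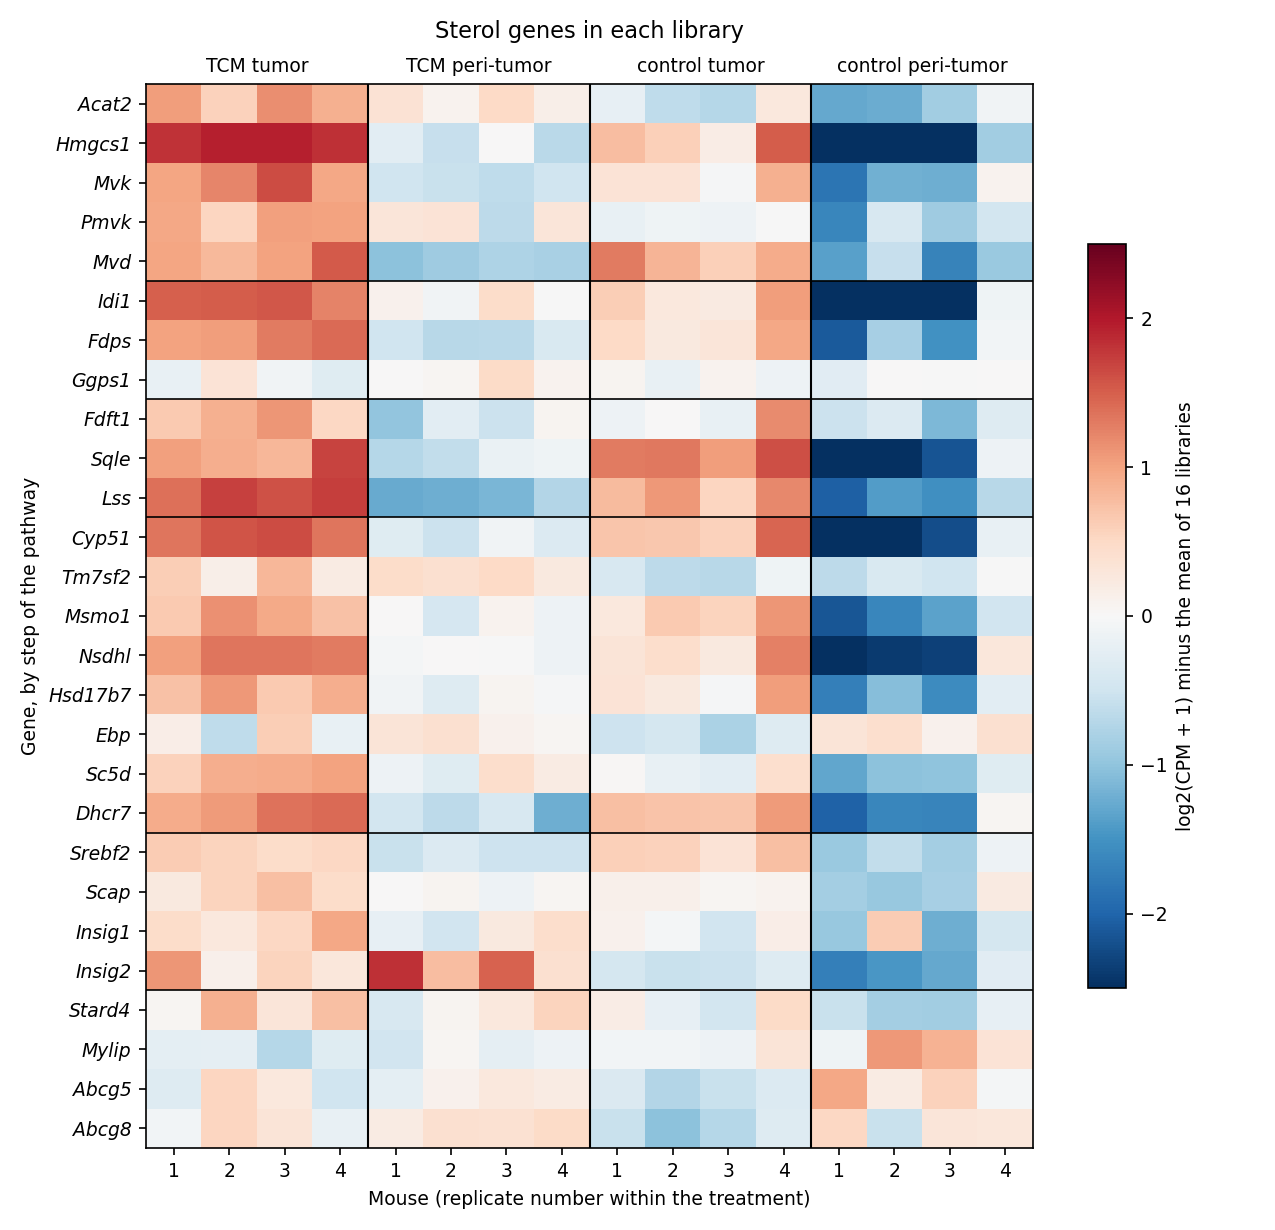
Log2(CPM + 1) of the 27 genes in 16 libraries, each gene relative to its own mean over the libraries, with colours limited to 2.5 log2 units either way. Genes run down by role, from the mevalonate pathway to export, and most enzyme rows are high in tumors and low in the first 3 control peri-tumor libraries.

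In the mevalonate pathway, Hmgcs1 rose most. It had 927, 1024, 1020.2 and 938 CPM in TCM tumors and 219, 176, 264 and 166 CPM in TCM peri-tumor liver. In control mice it had 454, 401, 302 and 753 CPM in tumors and 32.4, 43.8, 41.8 and 143 CPM in peri-tumor liver. Tumors and peri-tumor libraries did not overlap in either treatment. The log2 fold change of tumor over peri-tumor was 2.24 ± 0.40 in TCM mice (adjusted p = 0.00052, edgeR) and 2.87 ± 0.41 in control mice (adjusted p = 4.6e-05, edgeR). Mvd, which decarboxylates mevalonate diphosphate, had 52.9, 46.4, 53.5 and 77.5 CPM in TCM tumors and 12.4, 13.7, 15.0 and 14.5 CPM in TCM peri-tumor liver. In control mice Mvd had 65.8, 48.1, 39.9 and 51.0 CPM in tumors and 9.67, 17.2, 7.499 and 13.4 CPM in peri-tumor liver. Within each tissue the Mvd levels of the 2 treatments overlapped, and between tissues they did not. Its log2 fold changes were 2.05 ± 0.23 in TCM mice and 2.10 ± 0.23 in control mice (adjusted p = 1.07e-05 and 3.81e-06, edgeR).

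Mvk, the mevalonate kinase, had 58.0, 68.5, 92.0 and 57.4 CPM in TCM tumors and 20.1, 19.3, 18.2 and 20.1 CPM in TCM peri-tumor liver, with 37.0, 37.0, 28.4 and 54.7 CPM in control tumors and 7.44, 12.03, 11.9 and 31.0 CPM in control peri-tumor liver. It rose by 1.83 ± 0.33 on the log2 scale in tumors of TCM mice and by 1.34 ± 0.33 in those of control mice. The 4 TCM peri-tumor libraries lay within 2 CPM of one another. Pmvk, the next kinase, averaged 65.5 ± 9.98 CPM in TCM tumors and 38.0 ± 10.9 CPM in TCM peri-tumor liver (SD, n = 4), and rose by 0.78 ± 0.25. In control mice it averaged 32.1 ± 1.70 CPM in tumors and 19.97 ± 7.16 CPM in peri-tumor liver and rose by 0.69 ± 0.25. Acat2, the cytosolic thiolase that joins 2 acetyl-CoA, was higher in the tumor of 8 of 8 mice, by a log2 fold change of 0.66 ± 0.26 in TCM and 0.53 ± 0.26 in control mice, and missed the test in both (adjusted p = 0.0607 and 0.114, edgeR). With each mouse as a block, Acat2 passed in both (adjusted p = 0.00437 in TCM and 0.0083 in control mice, edgeR).

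Of the isoprenoid steps, Idi1 had 183, 186, 192 and 153 CPM in TCM tumors and 69.9, 60.8, 88.7 and 64.0 CPM in TCM peri-tumor liver. In control mice Idi1 had 98.7, 77.9, 75.4 and 133 CPM in tumors and 5.92, 10.4, 10.1 and 59.4 CPM in peri-tumor liver. Tumors and peri-tumor libraries did not overlap in either treatment, and the first 3 control peri-tumor libraries were far below the fourth. Idi1 rose in control tumors by 2.17 ± 0.52 on the log2 scale (adjusted p = 0.00325, edgeR). In TCM mice its log2 fold change of 1.33 ± 0.50 missed the test (adjusted p = 0.0526, edgeR) and passed it with each mouse as a block (adjusted p = 0.0111, edgeR). Fdps, which makes farnesyl diphosphate, averaged 338 ± 47.3 CPM in TCM tumors and 99.3 ± 10.3 CPM in TCM peri-tumor liver, with 212 ± 52.9 CPM in control tumors and 76.3 ± 46.6 CPM in control peri-tumor liver. Fdps rose by 1.77 ± 0.32 in TCM and 1.48 ± 0.32 in control tumors. Ggps1, which makes geranylgeranyl diphosphate for protein prenylation, had 4.92 to 8.31 CPM in TCM tumors and 6.41 to 9.21 CPM in TCM peri-tumor liver, with 5.47 to 6.81 CPM in control tumors and 5.03 to 6.41 CPM in control peri-tumor liver, and was called in none of the 5 comparisons.

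All 3 enzymes from squalene to lanosterol rose in tumors of both treatments. Lss, which closes the lanosterol ring system, had 278, 349.6, 322 and 355 CPM in TCM tumors and 43.7, 45.2, 47.8 and 63.4 CPM in TCM peri-tumor liver. In control mice Lss had 185, 226, 154 and 245 CPM in tumors and 25.3, 39.95, 35.9 and 65.1 CPM in peri-tumor liver. No tumor overlapped a peri-tumor library, and the peri-tumor levels of the 2 treatments overlapped. Lss was 6.51-fold higher in TCM tumors (log2 2.70 ± 0.24, adjusted p = 1.48e-06, edgeR) and 4.88-fold higher in control tumors (log2 2.29 ± 0.24, adjusted p = 2.47e-06, edgeR). Sqle, the squalene epoxidase, had 227, 211, 199.8 and 360.4 CPM in TCM tumors and 67.8, 72.0, 99.2 and 104 CPM in TCM peri-tumor liver, with 276, 279, 232 and 344 CPM in control tumors and 11.6, 16.3, 24.3 and 103 CPM in control peri-tumor liver. Sqle rose by 1.54 ± 0.50 in TCM and 2.87 ± 0.52 in control tumors on the log2 scale. Fdft1, the squalene synthase, averaged 149 ± 27.3 CPM in TCM tumors and 65.1 ± 19.8 CPM in TCM peri-tumor liver, with 107.8 ± 57.7 CPM in control tumors and 57.5 ± 13.6 CPM in control peri-tumor liver. It rose by 1.20 ± 0.30 in TCM and 0.91 ± 0.30 in control tumors.

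Of the 8 enzymes from lanosterol to cholesterol, 6 rose and 1 fell in control tumors, and 5 rose in TCM tumors. Cyp51 had 442, 524, 543 and 445 CPM in TCM tumors and 141, 119.9, 164 and 137 CPM in TCM peri-tumor liver. In control mice Cyp51 had 283, 279, 260.0 and 480.3 CPM in tumors and 21.3, 27.6, 37.0 and 153 CPM in peri-tumor liver. Tumors and peri-tumor libraries were apart in both treatments, and Cyp51 rose by 1.80 ± 0.46 in TCM and 2.45 ± 0.48 in control tumors (adjusted p = 0.00724 and 0.000652, edgeR). Dhcr7, a reductase of the last steps, had 227, 251, 307 and 322 CPM in TCM tumors and 86.8, 76.0, 90.3 and 50.5 CPM in TCM peri-tumor liver, with 202, 197, 194 and 252 CPM in control tumors and 28.7, 37.7, 37.5 and 124 CPM in control peri-tumor liver. Dhcr7 rose by 1.87 ± 0.36 in TCM and by 1.89 ± 0.36 in control tumors. The C4 sterol oxidase Msmo1 rose by 0.99 ± 0.28 in TCM and 1.97 ± 0.29 in control tumors, and the 3-keto reductase Hsd17b7 by 0.95 ± 0.28 in TCM and 1.53 ± 0.28 in control tumors. Sc5d, the lathosterol desaturase, had 859.7 to 1152 CPM in TCM tumors and 465 to 776 CPM in TCM peri-tumor liver, 475 to 772 CPM in control tumors and 233 to 466 CPM in control peri-tumor liver. It rose by 0.78 ± 0.22 and 0.88 ± 0.22 in TCM and control tumors.

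Of the other 3 late enzymes, Nsdhl rose and Ebp fell in control tumors, and Tm7sf2 was called in neither treatment. Nsdhl had 116, 146, 144 and 141 CPM in TCM tumors and 54.7, 57.3, 56.3 and 52.0 CPM in TCM peri-tumor liver, with 71.1, 78.1, 67.3 and 138 CPM in control tumors and 8.40, 10.1, 10.5 and 69.3 CPM in control peri-tumor liver. The 3 low control peri-tumor libraries stood near 10 CPM and the fourth near the control tumors. Nsdhl rose by 1.85 ± 0.53 in control tumors (adjusted p = 0.00953, edgeR), and its log2 fold change of 1.31 ± 0.51 in TCM mice, in which no libraries overlapped, missed the test (adjusted p = 0.0611) and passed it with each mouse as a block (adjusted p = 0.00509, edgeR). Tm7sf2, a C14 sterol reductase, showed log2 fold changes of 0.07 ± 0.18 and -0.08 ± 0.18 in TCM and control tumors, neither called. Ebp, the sterol isomerase, had 89.7, 94.3, 73.6 and 103 CPM in control tumors and 162, 172, 139 and 169 CPM in control peri-tumor liver. Each control tumor lay below each control peri-tumor library, and Ebp fell by 0.83 ± 0.20 on the log2 scale (adjusted p = 0.00328, edgeR). In TCM mice Ebp had 144, 82.8, 198 and 114 CPM in tumors and 160.5, 170.1, 139.6 and 134 CPM in peri-tumor liver, which overlapped (log2 -0.17 ± 0.20, adjusted p = 0.559, edgeR).

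**Figure D3:**
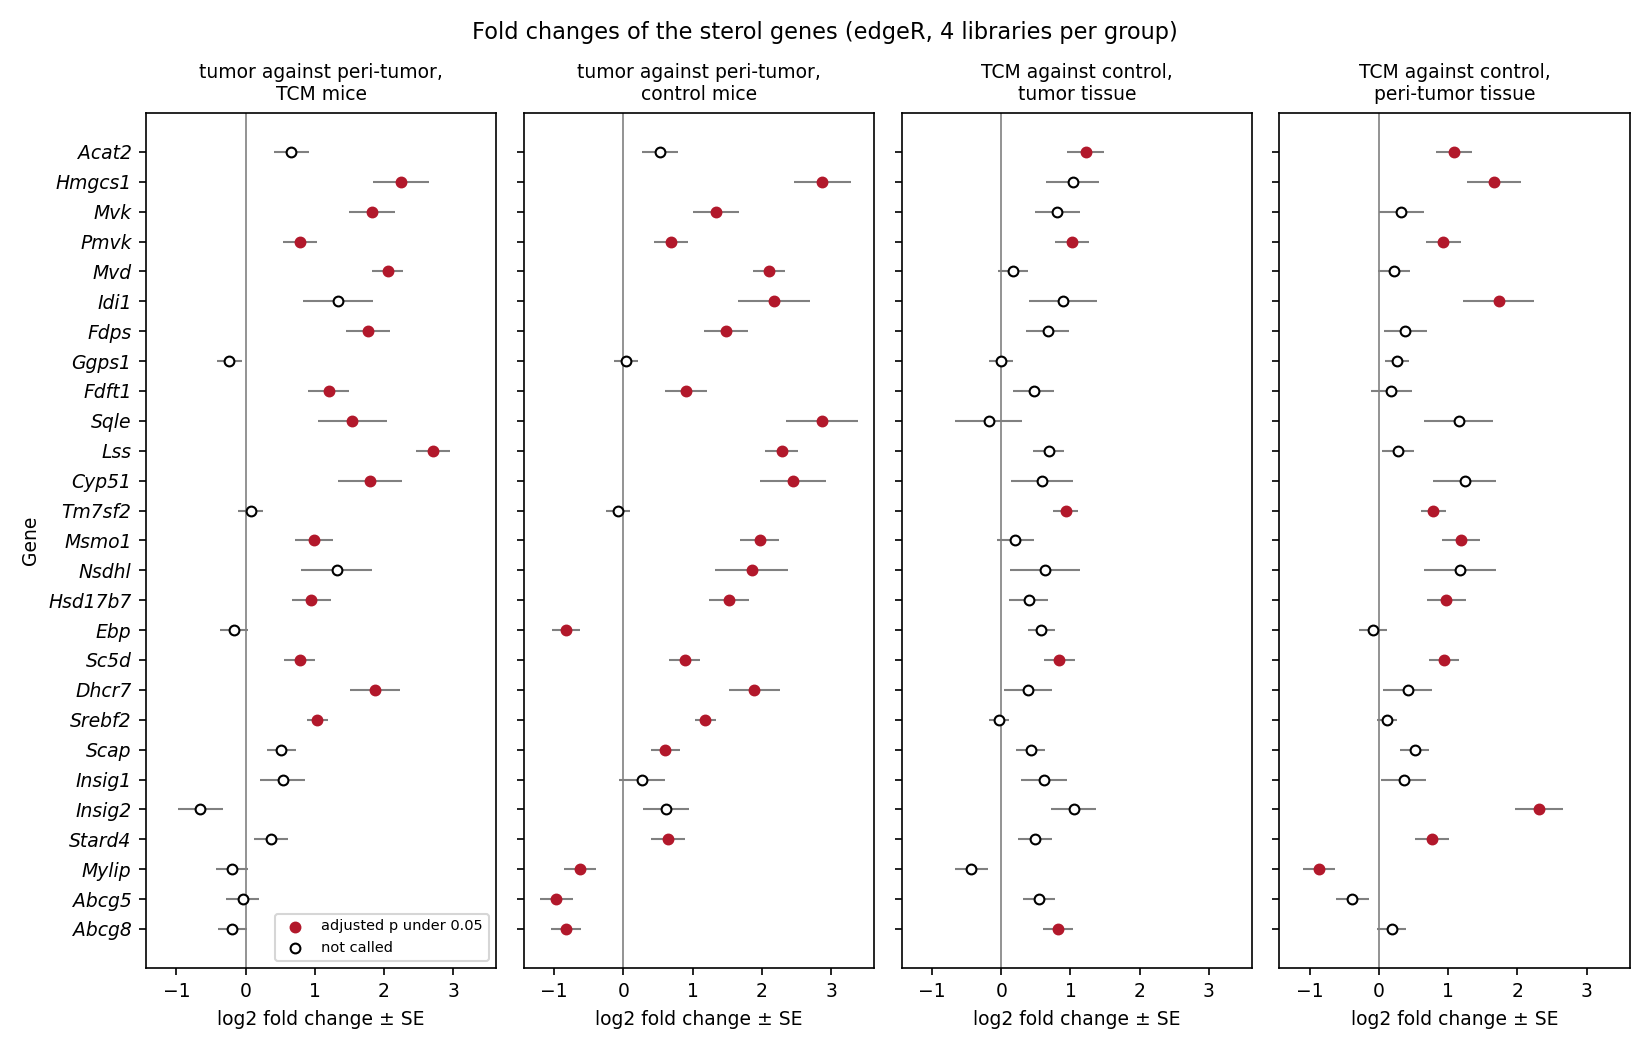
Log2 fold changes with standard errors of the 27 genes (rows, by role) in the 4 pairwise comparisons (panels), with filled points for genes called by edgeR's quasi-likelihood test at adjusted p under 0.05. Most enzymes, other than Ebp, Tm7sf2 and Ggps1, stand well to the right of 0 in both tumor comparisons, led by Hmgcs1 and Sqle in control mice (2.87 each) and by Lss in TCM mice (2.70).

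Srebf2, the gene of SREBP2, had 119.9, 114, 107 and 111 CPM in TCM tumors and 51.8, 61.0, 53.9 and 53.9 CPM in TCM peri-tumor liver. In control mice Srebf2 had 117, 116, 98.6 and 131 CPM in tumors and 39.95, 50.4, 42.5 and 70.6 CPM in peri-tumor liver. Tumors stood above peri-tumor libraries in both treatments, and the 2 treatments lay close to each other within a tissue. Srebf2 rose by 1.03 ± 0.15 in TCM and 1.18 ± 0.15 in control tumors on the log2 scale (adjusted p = 8.73e-05 and 1.42e-05, edgeR). Scap, the escort of SREBP2, rose by 0.60 ± 0.21 in control tumors (adjusted p = 0.0282, edgeR). In TCM mice Scap had 213 to 305 CPM in tumors and 165 to 190.2 CPM in peri-tumor liver without overlap, and a log2 fold change of 0.52 ± 0.21 that missed the test (adjusted p = 0.0694, edgeR). Insig1, itself a target of SREBP2, overlapped between tissues in both treatments and was not called (log2 0.53 ± 0.33 in TCM and 0.27 ± 0.33 in control mice). Control peri-tumor 2 had 642 CPM of Insig1, against 178 to 304 CPM in the other control peri-tumor libraries, and without it Insig1 was called higher in control tumors (log2 0.78, adjusted p = 0.0227, edgeR).

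Insig2, the other retention protein, had tumor fold changes of opposite sign in the 2 treatments. It had 289, 146, 198 and 163 CPM in TCM tumors and 476, 229, 373 and 177 CPM in TCM peri-tumor liver, and 97.6, 90.5, 91.9 and 105.99 CPM in control tumors and 39.95, 48.0, 54.7 and 110.0 CPM in control peri-tumor liver. Its log2 fold change of tumor over peri-tumor was -0.66 ± 0.33 in TCM and 0.61 ± 0.33 in control mice, neither of which passed the test (adjusted p = 0.139 and 0.147, edgeR). With each mouse as a block both passed, at log2 fold changes of -0.60 in TCM and 0.72 in control mice (adjusted p = 0.0394 and 0.0148, edgeR). The 4 TCM mice were all lower in the tumor than in their own peri-tumor tissue.

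The export and uptake genes did not follow the enzymes in tumors. Abcg5 and Abcg8, which together form the sterol exporter of the bile canaliculus, fell in control tumors. Abcg5 had 88.7, 68.2, 76.6 and 90.1 CPM in control tumors and 224, 131, 169.7 and 110.2 CPM in control peri-tumor liver, and Abcg8 had 88.7, 63.5, 79.8 and 104 CPM in control tumors and 187, 88.8, 162 and 160.1 CPM in control peri-tumor liver. Abcg5 did not overlap between the tissues, whereas Abcg8 did through control tumor 4 and control peri-tumor 2. Abcg5 fell by 0.97 ± 0.24 and Abcg8 fell by 0.83 ± 0.21 on the log2 scale (adjusted p = 0.00366 and 0.00507, edgeR). In TCM mice Abcg5 had 90.3, 166, 136 and 79.7 CPM in tumors and 95.9, 122, 137 and 131 CPM in peri-tumor liver, and Abcg8 had 124, 191, 163 and 115 CPM in tumors and 151, 173, 171 and 183 CPM in peri-tumor liver. Their log2 fold changes in TCM mice were -0.04 ± 0.24 and -0.19 ± 0.21, with overlapping libraries and no call. Mylip, a ubiquitin ligase that removes lipoprotein receptors, fell by 0.63 ± 0.23 in control tumors (adjusted p = 0.037, edgeR), a call lost with each mouse as a block (adjusted p = 0.0702, edgeR). Stard4, a soluble sterol carrier, rose by 0.64 ± 0.25 in control tumors, and in TCM mice its log2 fold change of 0.37 ± 0.25 passed only with each mouse as a block (adjusted p = 0.0491, edgeR).

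Markers of other cells moved between the same tissues. The 12 cell cycle genes summed to 136 to 214 CPM in TCM tumors against 44.2 to 68.6 CPM in TCM peri-tumor liver, and to 88.4 to 119 CPM in control tumors against 48.7 to 60.6 CPM in control peri-tumor liver, and 10 of 12 in TCM and 9 of 12 in control mice rose. The 7 Kupffer cell markers summed to 37.7 to 197 CPM in TCM tumors against 245 to 314 CPM in TCM peri-tumor liver, and to 124 to 187 CPM in control tumors against 489 to 1097 CPM in control peri-tumor liver, and 4 of 7 in TCM and 7 of 7 in control mice fell. The 8 cholangiocyte markers, of which 2 of 5 tested rose in each treatment and Cftr and Krt7 were below 1 CPM everywhere and Spp1 alone spanned 20.6 to 2202 CPM, summed to 429 to 1249 CPM in TCM tumors against 44.8 to 74.9 CPM in TCM peri-tumor liver, and to 909.6 to 2237 CPM in control tumors against 42.9 to 103 CPM in control peri-tumor liver. The 9 stellate cell and fibroblast markers summed to 247 to 383 CPM in TCM tumors against 164 to 207 CPM in TCM peri-tumor liver, and to 302 to 617 CPM in control tumors against 107 to 210.3 CPM in control peri-tumor liver, without overlap between tissues, and 5 of 9 rose in each treatment while 2 in TCM and 1 in control mice fell. The 8 recruited macrophage markers summed to 113 to 201 CPM in TCM tumors against 76.3 to 113 CPM in TCM peri-tumor liver, and to 184 to 445 CPM in control tumors against 110.2 to 199 CPM in control peri-tumor liver, and 5 of 8 in TCM and 7 of 8 in control mice rose.

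The 9 hepatocyte markers, which check the labelled tissue, summed to 122980.0 to 193642 CPM in TCM tumors against 104781 to 152854 CPM in TCM peri-tumor liver, and to 115049 to 163582 CPM in control tumors against 79708 to 115812 CPM in control peri-tumor liver. In FPKM their sums did not overlap between tissues, at 58695 to 82464 in TCM tumors against 42739 to 53717 in TCM peri-tumor liver, and 54948 to 73831 in control tumors against 35682 to 47781 in control peri-tumor liver. Alb alone spanned 49840 to 137435 CPM over the libraries, so the CPM sums rest largely on this gene. Its part in the FPKM sums is not given here. Of the 9, 1 rose and 3 fell in TCM tumors and 3 rose and 3 fell in control tumors. Of the 8 endothelial markers 3 rose and 2 fell in TCM tumors and 2 rose and 2 fell in control tumors, and of 7 tested lymphocyte and 2 tested neutrophil markers 1 lymphocyte marker was called, higher in TCM tumors. The part of these cells in the rise of the enzymes was not tested.

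Of the 22 calls in control mice, leaving out single libraries ended those of Pmvk, Scap, Stard4, Mylip and Fdft1, with adjusted p up to 0.0939, 0.104, 0.163, 0.131 and 0.142 (edgeR). Any of 8 libraries (control tumors 1 to 4, control peri-tumor 1 and 3, TCM tumors 1 and 4) ended that of Pmvk, and control peri-tumor 3 or control tumor 4 that of Fdft1. That of Scap was lost without any control library other than peri-tumor 4, and that of Mylip without control tumors 1 to 3 taken singly, or control peri-tumor 2 or 3. That of Stard4 was lost without any of 9 libraries (control peri-tumor 1 to 3, control tumors 1 and 4, TCM peri-tumor 2 and 3, TCM tumors 3 and 4). Of the 14 calls in TCM mice, Sqle was lost without TCM tumor 4 or either of TCM peri-tumor 1 and 2 (adjusted p up to 0.0717) and Pmvk without TCM tumors 3 or 4 or TCM peri-tumor 3 (up to 0.0602, edgeR). Calls were gained in TCM mice by Idi1 without any 1 control peri-tumor library, by Nsdhl without control peri-tumor 1, 2 or 4, by Acat2 without control peri-tumor 4, control tumor 4 or TCM tumor 2, and by Scap without control peri-tumor 4 (adjusted p of 0.00009 to 0.0483, edgeR).

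In peri-tumor liver, 10 of the 27 genes were higher in TCM than in control mice, 1 was lower and 16 did not pass the test. Over all genes 6.75% were called higher and 7.36% lower (14.1% in either direction). The median log2 fold change was 0.51, against 0.00 over all genes. The rises spanned several steps, with Acat2, Hmgcs1 and Pmvk of the mevalonate pathway, Idi1, and Tm7sf2, Msmo1, Hsd17b7 and Sc5d of the late steps, together with Insig2 and Stard4. Mylip was the gene that fell. Of the 19 enzymes 8 rose and none fell. Without overlap between the 4 and 4 libraries, 6 of the 27 genes were higher in TCM mice and none lower, where 9.13% of all genes were higher and 8.85% lower in this way.

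Insig2 rose most, to 314 ± 137 CPM in TCM peri-tumor liver against 63.2 ± 31.8 CPM in control peri-tumor liver (SD, n = 4). The lowest TCM library had 177 CPM and the highest control library, that of mouse 4, 110.0 CPM. This was 4.97-fold (log2 2.31 ± 0.34, adjusted p = 0.00101, edgeR). Hmgcs1 averaged 206 ± 45.04 CPM in TCM and 65.3 ± 52.3 CPM in control peri-tumor liver and rose by 1.66 ± 0.39 (adjusted p = 0.0133, edgeR). All 4 TCM libraries of Hmgcs1 lay above all 4 control libraries. Idi1 rose by 1.73 ± 0.51 (adjusted p = 0.0373, edgeR), with TCM libraries between 60.8 to 88.7 CPM and control libraries between 5.92 to 59.4 CPM.

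Acat2 had 102.2, 84.2, 112 and 88.5 CPM in TCM peri-tumor liver and 32.3, 33.1, 43.1 and 74.2 CPM in control peri-tumor liver. Tm7sf2 had 108.2, 103, 111 and 93.4 CPM in TCM and 49.1, 59.5, 54.8 and 77.8 CPM in control peri-tumor liver. For both genes the groups were apart. The log2 fold changes were 1.08 ± 0.26 for Acat2 and 0.79 ± 0.18 for Tm7sf2 (adjusted p = 0.0141 and 0.0102, edgeR). Msmo1 had 81.6, 60.4, 86.1 and 74.8 CPM in TCM and 17.7, 25.7, 31.7 and 58.2 CPM in control peri-tumor liver, and rose by 1.18 ± 0.28. Sc5d had 526, 465, 776 and 665 CPM in TCM and 233, 281, 287 and 466 CPM in control peri-tumor liver, and rose by 0.94 ± 0.22. Sc5d overlapped through control mouse 4, which stood above TCM mouse 2 by less than 1 CPM. Hsd17b7 rose by 0.97 ± 0.28, Pmvk by 0.93 ± 0.25 and Stard4 by 0.77 ± 0.25, each with some overlap. Mylip had 7.66, 11.5, 9.29 and 10.1 CPM in TCM and 10.1, 24.5, 21.0 and 14.3 CPM in control peri-tumor liver, and fell by 0.86 ± 0.23 with overlap.

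**Figure D4:**
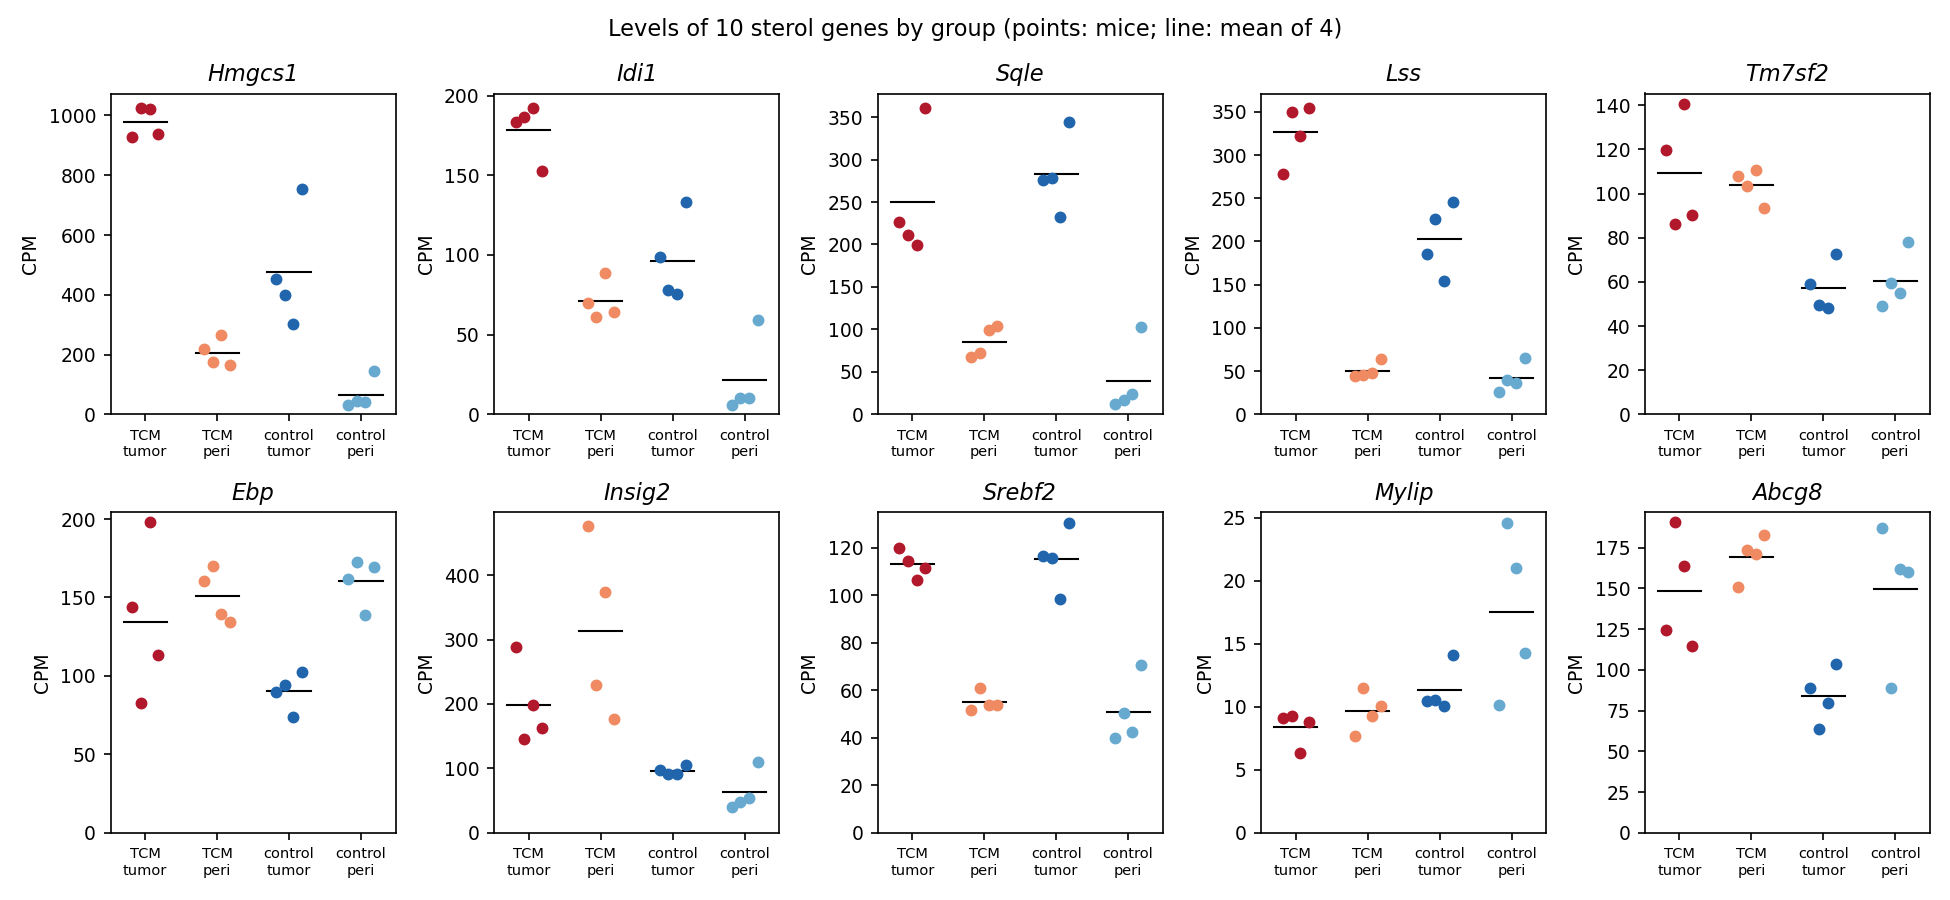
CPM of selected genes by group, with points for mice and a line at the mean of 4. Insig2 is highest in TCM peri-tumor liver (177 to 476 CPM), whereas Hmgcs1 is highest in TCM tumors (927 to 1024 CPM) and Srebf2 follows tissue in both treatments.

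The genes that did not pass in peri-tumor liver included Srebf2 (log2 0.12 ± 0.15, adjusted p = 0.64), Mvd (0.22 ± 0.23, 0.57) and Lss (0.27 ± 0.23, 0.472, all edgeR). For Cyp51 (1.24 ± 0.46), Nsdhl (1.17 ± 0.52) and Sqle (1.15 ± 0.50) the fold changes were large and the adjusted p (edgeR) were 0.0824, 0.141 and 0.131. In each of these 3 genes control mouse 4 stood at or above the lowest TCM library, and the other 3 control mice below every TCM library. Insig1 (log2 0.36 ± 0.33) was called higher in TCM peri-tumor liver without control peri-tumor 2 (log2 0.88, adjusted p = 0.0471, edgeR). Without control peri-tumor 4, 18 of the 27 genes were called higher. Only 6 remained without any 1 of control peri-tumor 1, control peri-tumor 3 and TCM peri-tumor 4. Over all genes, 1003 higher calls with all libraries became 1647 without control peri-tumor 4. The calls of Hmgcs1, Tm7sf2, Msmo1, Sc5d and Insig2 held without each library in turn, and that of Acat2 was lost without control peri-tumor 2 (adjusted p = 0.05001, edgeR). The call of Idi1 was lost without any peri-tumor library other than control 4 (adjusted p up to 0.105), that of Pmvk without control 1 or 3 or TCM 1, 2 or 4 (up to 0.0647), and that of Hsd17b7 without control 1, 2 or 3 or TCM 1, 3 or 4 (up to 0.0971, edgeR). The call of Mylip was lost without peri-tumor control 2 or 3 or TCM 1 or 3 (up to 0.0887), and that of Stard4 without any of 10 libraries (peri-tumor control 1 to 3 and TCM 2 to 4, control tumors 1 and 2, TCM tumors 3 and 4; up to 0.137, edgeR). The Kupffer cell markers were lower in TCM peri-tumor liver, with 5 of 7 called lower and summed levels of 245 to 314 CPM against 489 to 1097 CPM in control peri-tumor liver, where mouse 4 was lowest. The neutrophil markers summed to 1.06 to 2.71 CPM in TCM against 5.71 to 10.3 CPM in control peri-tumor liver without overlap, and neither of the 2 tested was called (edgeR, 0 at an unadjusted p under 0.05). The recruited macrophage markers summed to 76.3 to 113 CPM in TCM against 110.2 to 199 CPM in control peri-tumor liver, with none of 8 called (edgeR, 3 at an unadjusted p under 0.05). The part of these cells in the higher enzyme levels was not tested.

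In tumors, 5 of the 27 genes were higher in TCM than in control mice, none was lower (edgeR, also 0 at an unadjusted p under 0.05 and with DESeq2) and 22 did not pass. Over all genes 4.55% were called higher and 2.72% lower (7.27% in either direction), and the median log2 fold change was 0.59 for the 27 genes against 0.00 over all genes. The 5 genes were Acat2, Pmvk, Tm7sf2, Sc5d and the exporter Abcg8, and the first 4 also rose in peri-tumor liver. Acat2 had 165, 119, 179 and 149 CPM in TCM tumors and 68.3, 50.6, 48.1 and 95.8 CPM in control tumors. Tm7sf2 had 119.6, 86.4, 141 and 90.5 CPM in TCM tumors and 58.9, 49.5, 48.1 and 72.4 CPM in control tumors. Pmvk had 68.8, 50.6, 72.1 and 70.4 CPM in TCM tumors and 30.5, 32.1, 31.5 and 34.5 CPM in control tumors. In all 3 genes every TCM tumor stood above every control tumor. The log2 fold changes were 1.22 ± 0.26 for Acat2, 0.93 ± 0.18 for Tm7sf2 and 1.03 ± 0.25 for Pmvk (adjusted p = 0.0138, 0.00851 and 0.0233, edgeR).

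Sc5d had 859.7 to 1152 CPM in TCM tumors and 475 to 772 CPM in control tumors and rose by 0.84 ± 0.22 (adjusted p = 0.034, edgeR). Abcg8 had 115 to 191 CPM in TCM tumors and 63.5 to 104 CPM in control tumors and rose by 0.82 ± 0.21 (adjusted p = 0.0317, edgeR). Neither overlapped. The groups also did not overlap for Hmgcs1, at 927 to 1024 CPM in TCM and 302 to 753 CPM in control tumors, but its log2 fold change of 1.03 ± 0.39 missed the test (adjusted p = 0.111, edgeR). In all, 13 of the 27 genes were higher without overlap in TCM tumors and 1 was lower, where over all genes 8.83% were higher and 7.04% lower in this way. For Srebf2 (-0.03 ± 0.15), Mvd (0.17 ± 0.22) and Sqle (-0.18 ± 0.48) the log2 fold changes were small and not called.

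Calls in tumors depended on single libraries, other than those of Acat2 and Tm7sf2, which held without each library in turn. Without any 1 of control tumors 1, 2 and 3 and TCM tumor 3, the calls of Pmvk, Sc5d and Abcg8 were lost and 2 remained, the calls of Sc5d and Abcg8 were also lost without TCM tumor 2, and that of Sc5d without TCM tumor 4 (edgeR, adjusted p up to 0.0643 for Pmvk, 0.0913 for Sc5d and 0.0931 for Abcg8). Fdft1 was called higher without control tumor 4 (adjusted p = 0.0282), Ebp without TCM tumor 2 (0.0183) and Lss without control peri-tumor 1 (0.0465) or 4 (0.0226, all edgeR). Without control peri-tumor 4, which enters through the shared estimate of spread, 12 genes were called higher. Over all genes, 677 higher calls with all libraries then became 928. The recruited macrophage markers were lower in TCM tumors, with 4 of 8 called lower and sums of 113 to 201 CPM against 184 to 445 CPM in control tumors. Of the 2 tested neutrophil markers 1 was lower. Cell cycle genes were higher, with 5 of 12 called, and their part in the enzyme levels was not tested.

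The change from peri-tumor to tumor differed between TCM and control mice in none of the 27 genes (edgeR, adjusted p of 0.161 to 0.985), where 0.706% of all genes were called higher and 0.404% lower (1.11% in either direction). At an unadjusted p under 0.05 there were 5 of the 27, where 17.5% of all genes were. DESeq2 called none of the 25 genes for which it gave an adjusted p, and the fit with each mouse as a block called none of the 27. The median difference was -0.05 on the log2 scale. With both libraries of control mouse 4 left out, 7 genes had a lower log2 fold change of tumor over peri-tumor in TCM than in control mice. These were Sqle, with a difference of -2.33, Idi1 with -1.87, Insig2 with -1.59, Nsdhl with -1.54, Cyp51 with -1.42, Msmo1 with -1.17 and Hmgcs1 with -1.01 (edgeR, adjusted p of 0.000298 to 0.0475). For Insig2 the fold changes were of opposite sign, -0.65 in TCM and 0.94 in control mice. The same 7 were called when control peri-tumor 4 alone was left out. Over all genes, 60 lower calls then became 264.

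Control mouse 4 had more sterol synthesis RNA than the other control mice in both tissues. Its peri-tumor library was above all 3 others in 15 of the 19 enzymes, at a median of 2.27 times their mean. Nsdhl, at 69.3 CPM, was 7.17 times, Idi1, at 59.4 CPM, 6.75 times, and Sqle, at 103 CPM, 5.89 times the mean of the other 3. Its tumor was above the other 3 control tumors in 17 of 19 enzymes, at a median of 1.52 times, with Fdft1 highest at 2.45 times. The 2 exporter genes did not share this rise in peri-tumor liver, where Abcg5 stood at 0.631 and Abcg8 at 1.10 times the others' mean. The same peri-tumor library had 489 CPM of summed Kupffer cell markers, against 907 to 1097 CPM in the other 3 control mice, and 103 CPM of summed cholangiocyte markers, against 42.9 to 50.8 CPM. The part of these cells was not tested, and how often this mouse stood above the other 3 control mice over all genes was not counted.

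Leaving out both libraries of control mouse 4 raised the number of higher calls over all genes in both tissues, as counted in the last section. Of the 27 genes, 19 were then higher in TCM peri-tumor liver and 16 in TCM tumors. In peri-tumor liver this added Nsdhl (log2 2.50), Sqle (2.29), Cyp51 (2.29), Dhcr7 (1.13), Mvk (0.89), Scap (0.87), Fdps (0.84), Lss (0.56) and Srebf2 (0.31). In tumors it added Hmgcs1 (1.38), Insig2 (1.13), Idi1 (1.13), Mvk (1.05), Nsdhl (0.96), Fdft1 (0.95), Fdps (0.89), Cyp51 (0.87), Lss (0.83), Hsd17b7 (0.70) and Scap (0.46). Pmvk, Fdft1 and Stard4 were then no longer called in control tumors, and Acat2 and Insig2 were. With control peri-tumor 4 alone left out, the rises of Hmgcs1 and Idi1 in TCM peri-tumor liver were 2.39 and 3.01 on the log2 scale, against 1.66 and 1.73 with all mice. The tumor effect in control mice then became 4.02 for Sqle, 3.60 for Hmgcs1, 3.50 for Cyp51, 3.45 for Idi1, 3.19 for Nsdhl and 2.61 for Dhcr7, each larger than with all mice. Leaving out a mouse because it stands apart is a choice made after its values were seen in earlier results of these data.

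**Figure D5:**
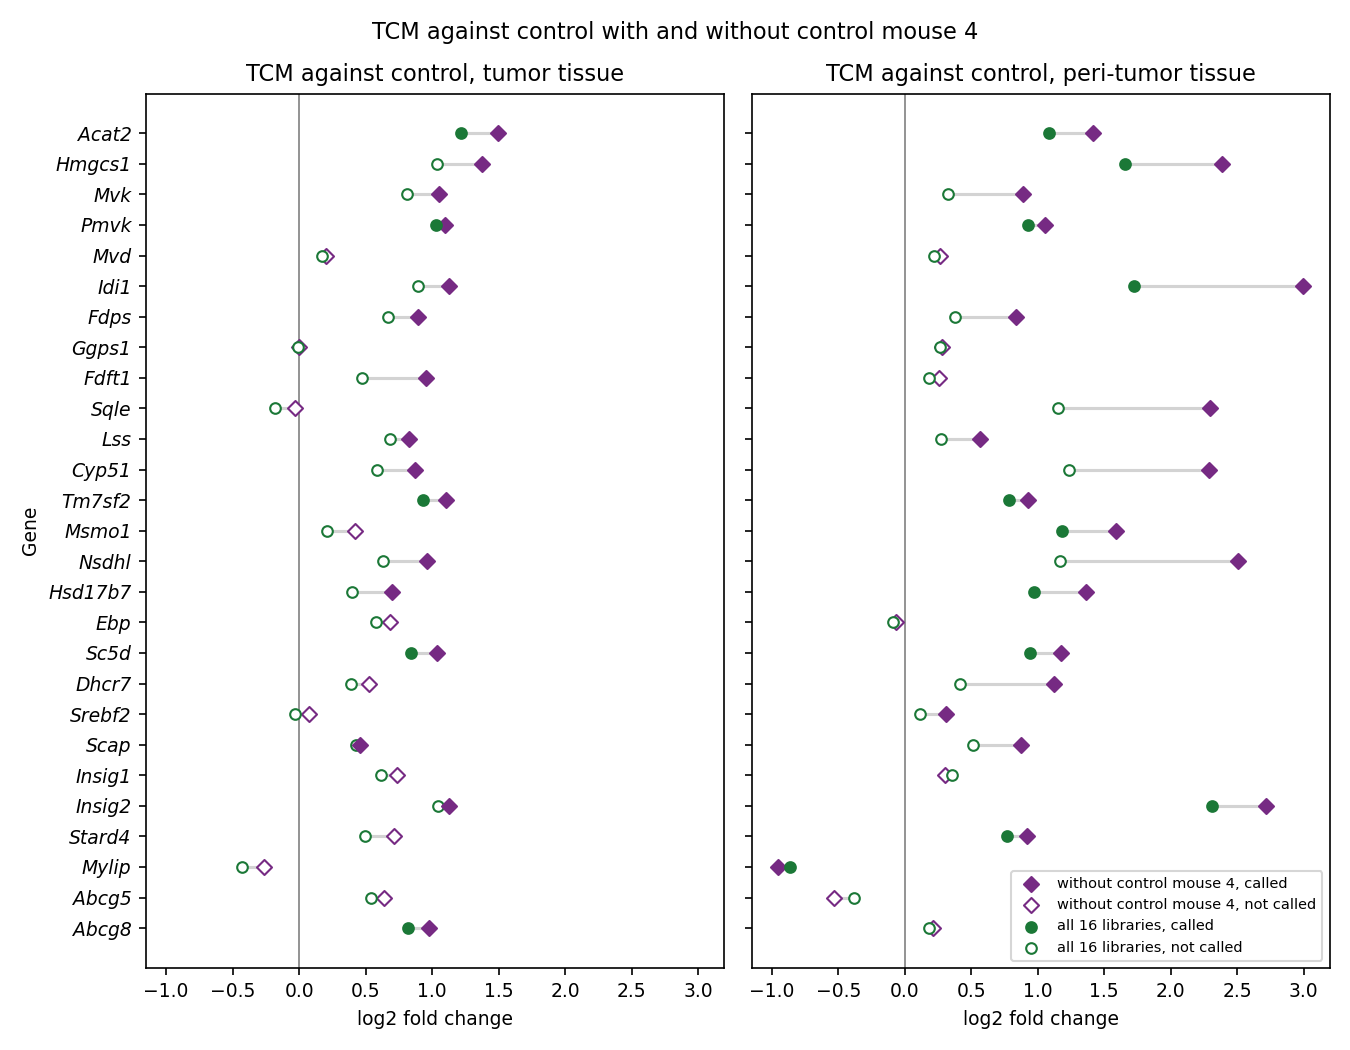
Log2 fold changes of TCM against control for the 27 genes (rows), in tumors and in peri-tumor liver (panels). Each gene is shown with all 16 libraries and without both libraries of control mouse 4. Filled points mark genes called by edgeR at adjusted p under 0.05. In peri-tumor liver, leaving out that mouse moves Nsdhl from 1.17 to 2.50 and Idi1 from 1.73 to 3.00.

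With the group means removed, most enzymes varied together over the 16 libraries. Of the 171 enzyme pairs 161 had a positive correlation of log2(CPM + 1), with a median of 0.619, and all points share the library scaling. Idi1 and Cyp51 correlated at 0.978, Cyp51 and Nsdhl at 0.971 and Hmgcs1 and Idi1 at 0.951. Against the mean of the other enzymes, Idi1, Cyp51, Hmgcs1, Mvk and Nsdhl correlated at 0.945 to 0.955, and Srebf2 at 0.878. Ggps1 (0.127), Ebp (0.194), Mvd (0.322), Fdft1 (0.405) and Pmvk (0.411) were least like the rest. Mvd was closest to Insig1, at 0.857. Abcg5 correlated with the enzymes at -0.385 and with Abcg8 at 0.725. Without both libraries of control mouse 4, over 14 libraries, 138 of the 171 pairs were positive with a median of 0.305, and Idi1 and Cyp51 correlated at 0.800, Cyp51 and Nsdhl at 0.615 and Hmgcs1 and Idi1 at 0.8293. The libraries include both tissues of each mouse.

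Per unit of gene length, the most abundant of the 27 transcripts were Insig1, Sc5d and Hmgcs1 in TCM tumors, at 183, 172 and 148 FPKM. In control peri-tumor liver Insig1 and Sc5d led again, at 97.5 and 50.4 FPKM, with Hmgcs1 at 9.43 FPKM. Ggps1 was lowest in all 4 groups, at 0.545 FPKM in TCM tumors. The gene lengths implied by the FPKM are 1.06 to 2.44 times the merged exons of the GENCODE M21 annotation, so the order of neighbouring genes depends on the length used.

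Counts of calls among other genes of the pathway stand beside the shares over all genes, which for tumor against peri-tumor were 17.3% higher and 15.6% lower in TCM mice and 22% higher and 21.2% lower in control mice. For TCM against control they were 6.75% higher and 7.36% lower in peri-tumor liver and 4.55% higher and 2.72% lower in tumors. Of 14 tested genes with a helper or side role in sterol synthesis, 2 rose and 6 fell in TCM tumors relative to peri-tumor liver, and 3 rose and 6 fell in control tumors. Tmem97, a sterol-regulated membrane protein, rose by 0.72 ± 0.12 in TCM and 0.64 ± 0.12 in control tumors. Between TCM and control mice, 8 of the 14 rose and 1 fell in peri-tumor liver and 7 rose in tumors. Por, the reductase that gives electrons to Cyp51 and Sqle, fell by 1.79 ± 0.30 in TCM peri-tumor liver. Of 19 genes of SREBP processing and sterol sensing, 1 rose and 2 fell in TCM tumors and 5 rose and 5 fell in control tumors. The shares in control tumors, 26.3% in each direction, were near those over all genes. Between TCM and control mice, 3 of the 19 rose and 2 fell in peri-tumor liver and none was called in tumors (edgeR, 2 at an unadjusted p under 0.05). Srebf1, the gene of SREBP1 and a target of LXR, had 125, 176, 161 and 449.9 CPM in TCM and 1260.0, 1384, 953 and 336 CPM in control peri-tumor liver and fell by 2.11 ± 0.45 (adjusted p = 0.00747, edgeR), where Insig2 rose.

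Of the 14 genes of LXR and its targets, 1 rose and 3 fell in TCM peri-tumor liver, and 4 rose and 1 fell in TCM tumors, relative to control mice. The cholesterol exporter Abcg1 fell by 1.62 ± 0.18 in peri-tumor liver and fell by 0.89 ± 0.18 in tumors, and the fatty acid desaturase Scd1 rose by 1.81 ± 0.32 in tumors. Between tissues 3 rose and 2 fell in TCM tumors and 2 rose and 6 fell in control tumors. Abcg1 and Cd5l are also expressed by macrophages, whose markers fell as given above, and this was not separated. Of the 7 genes that supply cytosolic acetyl-CoA, 3 rose and 1 fell in TCM peri-tumor liver and 2 rose in TCM tumors. The acetyl-CoA synthetase Acss2 rose by 1.45 ± 0.24 in peri-tumor liver and 1.70 ± 0.24 in tumors, malic enzyme Me1 rose by 2.21 ± 0.29 in peri-tumor liver, and the citrate carrier Slc13a5 fell by 3.61 ± 0.76 in peri-tumor liver. Slc13a5 was a low gene, at 0.0660 to 0.383 CPM in TCM against 1.65 to 3.12 CPM in control peri-tumor liver. Between tissues 1 of the 7 rose and 2 fell in TCM tumors, and none rose and 2 fell in control tumors.

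Of 24 genes of sterol intake, transport and esterification, 8 rose and 5 fell in tumors of each treatment, and 2 rose and 2 fell in TCM peri-tumor liver and 2 rose in TCM tumors relative to control mice. Npc1l1, the sterol importer, had 6.44, 2.29, 4.32 and 5.67 CPM in TCM tumors and 0 in every TCM peri-tumor library. In control mice it had 4.24, 1.45, 4.69 and 5.01 CPM in tumors and 0, 0, 0.254 and 0 CPM in peri-tumor liver, so that its reads came nearly all from tumors. Scp2, a peroxisomal sterol carrier, fell, with log2 fold changes of -1.37 ± 0.19 in TCM and -1.63 ± 0.19 in control tumors. Of 19 genes that use isoprenoids for prenylation or dolichol, 1 rose and 1 fell in TCM tumors, 4 rose and 3 fell in control tumors, and 5 rose in TCM peri-tumor liver and none was called in TCM tumors relative to control mice (edgeR, 4 at an unadjusted p under 0.05). In control tumors these were 21.1% higher and 15.8% lower, near the 22% and 21.2% over all genes. The median log2 fold change of these 19 genes was -0.04 in TCM and 0.14 in control tumors, against 1.31 in TCM and 1.53 in control tumors for the 19 synthesis enzymes.

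Some values could take reads from other genes. Of the 50-base words in Acat2 transcripts 45.9% also occur elsewhere, mainly in its neighbour Acat3. Acat3 averaged 313 CPM in TCM and 131 CPM in control peri-tumor liver, and 174 CPM in TCM and 74.8 CPM in control tumors. The rise of Acat2 with TCM is therefore uncertain in size in both tissues, and the part of Acat3 reads in it was not tested. The shares of words found elsewhere were 21.3% for Idi1, 11.7% for Fdps and 10.9% for Fdft1, mainly with the predicted genes Gm13502, Gm43738 and Gm6781 in that order. The exons of Fdps overlap those of Gm43738, annotated as protein-coding on the same strand, over 26.7% of their length. Gm43738 averaged 19.03 CPM in TCM tumors and 7.97 CPM in TCM peri-tumor liver, and 8.84 CPM in control tumors and 2.68 CPM in control peri-tumor liver, so it moved between the groups as Fdps did, at lower levels. The exons of Fdft1 overlap Ctsb on the other strand over 18.3% of their length, Tm7sf2 overlaps Vps51 on the same strand over 12.1%, and Abcg5 and Abcg8 overlap at their start by 82 bases on opposite strands. Whether the counting used the strand is not stated in the sources.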

How the data were processed

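Total RNA was isolated by the mirVana method and stranded mRNA libraries were sequenced, per the labels' protocols. The deposited count table holds the authors' whole read counts per gene, and the deposited FPKM files hold the authors' values per library, used for levels between genes. Both mm9 and mm10 are named as builds in the submitters' processing notes. The sources used here name no aligner, counter or strand setting. Of 54838 genes, 27552 had 0 counts throughout and 115 had no symbol (at most 0.0171% of a library). Totals were 13947483 to 16194224 counts per library. No library was a copy of another (chi-square per degree of freedom at least 15.6 between replicates).

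Counts were fitted with edgeR 4.0.16 in R 4.3.3 (TMM, filterByExpr with a count minimum of 10, 1 fit of 16 libraries, 12 residual degrees of freedom) and tested by quasi-likelihood F tests on 14865 genes, with Benjamini-Hochberg adjustment per comparison and calls at adjusted p under 0.05. The script was checked on simulated counts. Each standard error was taken as the size of the log2 fold change divided by the square root of F. Alternatives were RLE scaling, DESeq2 1.42.0, limma-voom (limma 3.58.1) with sample weights, a minimum of 1 CPM in 4 libraries as filter, no filter, the groups compared alone, replicate blocks, each library left out, and control mouse 4 left out. Correlations used log2(CPM + 1), a pseudocount of 1. Promoters and gene spans were read on GRCm38.

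The labels' animal codes tie tumor and peri-tumor tissue to one mouse. With group means removed, the tissues of one mouse correlated at 0.312, 0.0644, 0.0784 and 0.151 in TCM and 0.174, 0.133, 0.0702 and 0.262 in control mice, and in 7 of 8 mice the tumor was closest to its own peri-tumor library. TCM and control mice share only replicate numbers. The 27 genes, the gene lists and the choice to leave out control mouse 4 were made with earlier results of these data known. All 27 genes are reported, and genes outside them were named as examples of their lists. The files record no culture or cage, so p-values measure the spread between libraries of these mice within groups. The main fit took the tissues of a mouse as separate libraries, so its p-values do not measure the spread of the change within mice.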

Additional observations from a re-analysis of the deposited data

Results flagged for a closer look

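Over the 27 genes in 4 groups, there were 17 sets of 4 values in which 1 library stood apart from the other 3 by a gap above Dixon's 95% critical value, where chance flags about 1 in 20. Control mouse 4 accounted for 12 of the 17. In its peri-tumor library Hmgcs1 stood at 143 CPM, Idi1 at 59.4, Sqle at 103, Cyp51 at 153, Nsdhl at 69.3, Dhcr7 at 124 and the SREBP2 escort Scap at 212 CPM, each above the other 3 control mice. In its tumor Fdft1 stood at 194 CPM, Cyp51 at 480.3, Nsdhl at 138, Dhcr7 at 252 and Mylip at 14.1 CPM, again above the others. The 5 remaining values were spread over other mice. Pmvk was low in TCM tumor 2 (50.6 CPM) and in TCM peri-tumor 3 (21.7 CPM), Ggps1 was high in TCM peri-tumor 3 (9.21 CPM) and low in control peri-tumor 1 (5.03 CPM), and Sqle was high in TCM tumor 4 (360.4 CPM). No cause of these values was tested.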

How the results depend on the processing

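No call of the 27 genes changed sign under any alternative. Of the calls, those that held under all 24 alternatives run per comparison were 12 of 14 for tumor against peri-tumor in TCM mice, 15 of 22 in control mice (Idi1 was lost under none but had no DESeq2 value), 5 of 11 for TCM against control in peri-tumor liver (Hmgcs1, Tm7sf2, Msmo1, Sc5d and Insig2) and 2 of 5 in tumors (Acat2 and Tm7sf2). RLE scaling and the 1 CPM filter moved no call of these genes.

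In peri-tumor liver the 10 genes called higher became 17 with limma-voom, 6 (and 0 lower) with only the groups compared and 19 without control mouse 4, and over all genes 1003 higher became 1688, 600 and 1702, and 668 with no filter, while 1094 lower became 1661 with limma-voom and 1732 without that mouse. In tumors the 5 genes became 8 with DESeq2, 12 with limma-voom, 9 with only the groups compared and 16 without control mouse 4. Over all genes 677 higher became 1091, 1249 and 1284 with DESeq2, limma-voom and without that mouse, and 404 lower became 714 and 944 with the first 2 and 213 with no filter. For the difference of the tumor effect, limma-voom called 2 genes lower (Idi1 and Sqle) and the fit without control mouse 4 called 7. Over all genes the higher calls were 459, 376, 57 and 493 with DESeq2, limma-voom, no filter and without that mouse, and the lower calls 347, 232, 22 and 221, or 32 with each mouse as a replicate block.

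With each mouse as a replicate block, tumors of TCM mice had 18 of the 27 genes called higher and 1 lower (Insig2). The replicate number, which in the labels ties no TCM mouse to a control mouse, gave 14 calls in peri-tumor liver and 6 in tumors as a replicate block. Counts over all genes for these comparisons with a replicate block are not given here. The counts of the 27 genes therefore have no share to stand beside. In peri-tumor liver, TCM and control libraries of the same number correlated at 0.0272 to 0.118, and each best match had the same number. In tumors they correlated at -0.121 to -0.0223, and no best match had the same number. What libraries of the same number may share was not tested.

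Leaving out 1 library at a time gave 12 to 18 higher and 0 lower in TCM tumors against peri-tumor, 14 to 20 higher and 3 to 4 lower in control tumors, 6 to 18 higher and 0 to 1 lower for TCM against control in peri-tumor liver, 2 to 12 higher in tumors, and 0 to 7 lower for the difference. Over all genes the ranges were 2206 to 2762 higher and 1846 to 2506 lower, 2903 to 3467 and 2837 to 3347, 524 to 1647 and 577 to 1577, 271 to 928 and 124 to 595, and 43 to 401 and 15 to 264 in the same comparisons. The cause of these shifts was not tested.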
